A study of Mus musculus with 10 samples.

Results

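The genes described here are 31 genes of fibroblasts and of the extracellular matrix, measured in mouse embryonic stem (ES) cells that had been grown on a layer of fibroblasts. Probes were taken by name: every noncontrol probe whose gene name in the array's own annotation was on the list was used. The list itself was chosen with earlier results of these data known. All 31 genes were found, with 36 of the 55681 probes on the array, and 30 of them were among the 28193 genes tested. The remaining gene, Lum, which encodes the proteoglycan lumican, was not well above background on any of the 10 arrays. The question put to these genes was how much fibroblast RNA each array carried and whether it differed between the cell lines.

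Fibroblasts build the connective tissue around other cells. They secrete the fibril-forming collagens, which assemble outside the cell into banded fibres, are crosslinked by lysyl oxidases and are bound by decorin, fibronectin and collagen VI. Matricellular proteins such as Sparc and the thrombospondins sit in the same matrix and tune how cells adhere to it, and fibroblasts under tension also make smooth muscle actin. ES cells are epithelial-like cells of the early embryo that are kept on fibroblast feeder layers, so a culture holds both cell types, and some of these genes, Sparc and Fn1 among them, are also made by early embryonic cells, endoderm in particular.

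The arrays compared diploid AB1 cells, a male ES line (WT, passages 18 and 20), with 4 ES lines that carry 3 copies of 1 autosome: Ts6 for chromosome 6 (passages 9 and 18), Ts8 for chromosome 8 (passages 10 and 13), Ts11 for chromosome 11 (passages 8 and 11) and Ts15 for chromosome 15 (passages 11 and 14). The strain of the 4 trisomic lines is given as 129 S7/SvEvBrd, each trisomy is represented by 1 line, and no parent line is named. All 5 groups were grown on irradiated SNL76/7 feeders, a fibroblast line, and every harvest was left to settle in a culture dish for 30 to 40 min so that the feeders would attach and be left behind. Each group had 2 biological replicates, numbered 1 and 2, and each replicate 1 array of a single colour (Cy3), so precision is limited by the 2 arrays of each group.

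Spots well above background made up 71.4% to 80.2% of those on an array that are not controls, and none was saturated. Both Ts15 arrays lay on slide 2 and the other 8 on slide 1, where WT, Ts6, Ts8 and Ts11 filled slide columns 1 to 4 in that order. Ts15 therefore cannot be told apart from its slide, nor the other groups from their slide columns, and the replicate number of every array is also its row on the slide. All 14 genes of a list of ES cell markers, among them Pou5f1, Sox2 and Nanog, were tested, and their summed level ranged from 165.7 to 200.3 over the 10 arrays. Levels are log2 of the probe's signal divided by the 75th percentile of the array of its noncontrol spots; summed levels add these ratios before the log. A probe's level depends on its own binding strength and is not set against that of another probe.

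RNA of fibroblast and matrix genes was present on every array. Of the 31 genes, 28 were well above background on all 10 arrays, as were 32 of their 36 probes, against 66.2% of all probes. Col5a2 was well above background on 9 arrays and not on Ts6 replicate 1. Postn, which encodes periostin, was so on 6 arrays, and on neither Ts6 array. The genes taken here to define fibroblasts, Col1a1, Col1a2, Col3a1, Vim and Thy1, were measured on all 10 arrays including those of WT. Which cells of the culture made these transcripts was not tested.

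The level of the 30 tested genes as a group was lower than in WT in Ts6, Ts8 and Ts11 and higher in Ts15, by small amounts. The median difference from WT was -0.25 on the log2 scale in Ts6, -0.22 in Ts8 and -0.16 in Ts11, and 0.19 in Ts15, beside medians over all genes of -0.01, 0.04, 0.003 and -0.01. In Ts6, 25 of the 30 had a mean below that of WT, where 51.7% of all genes did; in Ts8 it was 23 (45.3% of all genes) and in Ts11 20 (49.6%). In Ts15, 25 of the 30 were above WT, where 49.2% of all genes were. In these bulk samples fewer fibroblasts and less of these transcripts per cell cannot be told apart.

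Few of the single genes passed the test. With limma and Benjamini-Hochberg adjustment over all genes, 1 of 30 was called lower in Ts6 (Col5a2), where 4.6% of all genes were, and 2 of 30 were called higher in Ts15 (Sparc and Acta2), where 2.58% were. None was called in Ts8 or Ts11, where 3.49% and 8.13% of all genes were called in either direction; at an unadjusted limma p under 0.05 there were 6 in Ts8 (24.7% of all genes) and 3 in Ts11 (25.3%). None was called in the mean of the 4 lines against WT either (background 3.85%), with 5 at an unadjusted limma p under 0.05 (22.6% of all genes). A moderated F test among the 5 groups called 4 of 30, which is 13.3%, where 28.7% of all genes were called. The share called among the 30 genes thus lay below that background.

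**Figure D1:**
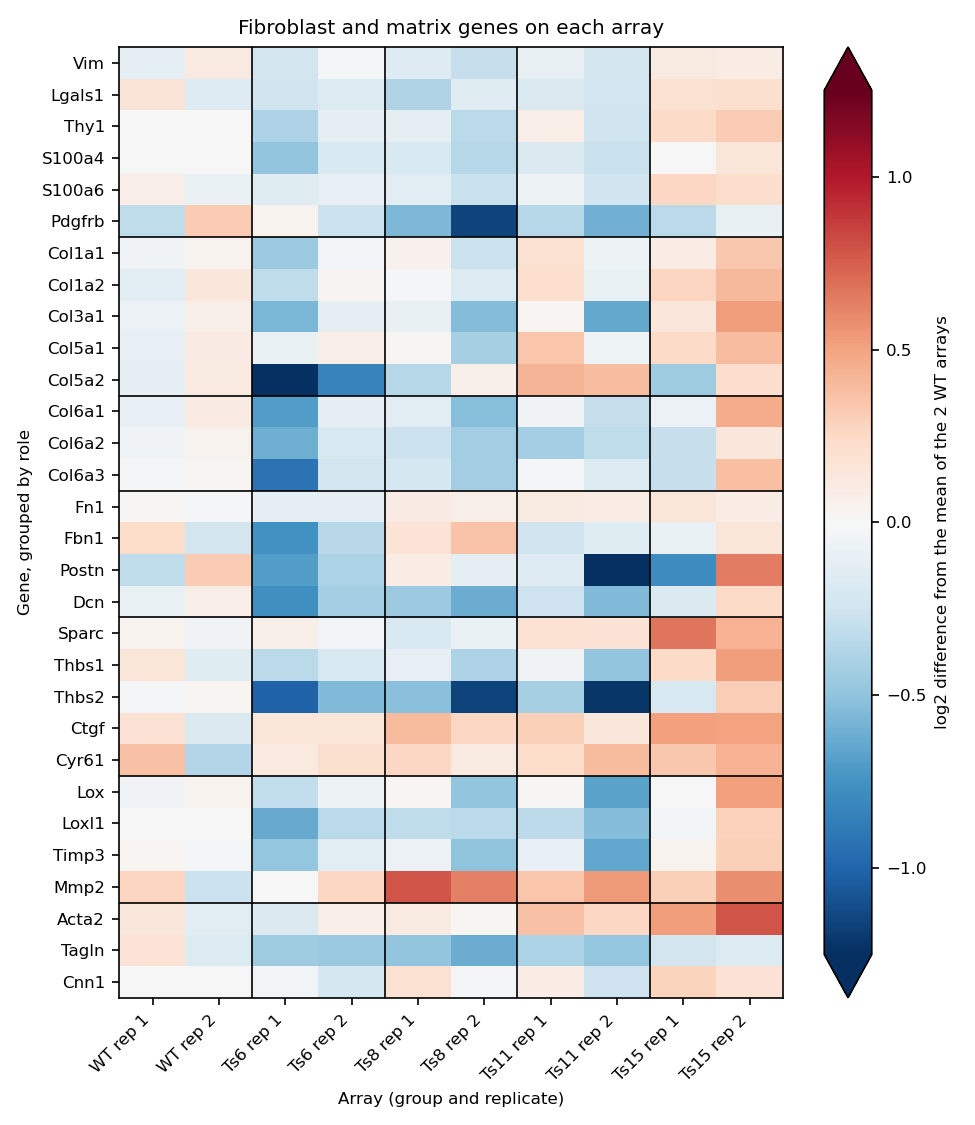
Heat map of 30 fibroblast and matrix genes (rows, grouped by role) on 10 arrays (columns); colour gives the log2 difference from the mean of the 2 WT arrays. The column of Ts6 replicate 1 is mostly blue (median -0.36) and that of Ts15 replicate 2 mostly red (median 0.31).

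Counts of genes whose 2 arrays both lay outside both WT arrays ran the same way. In Ts6, 20 of the 30 genes lay below both WT arrays and 0 above, beside 30.4% and 27.1% of all genes. In Ts8, 15 lay below and 3 above (24.4% and 31.1% of all genes), and in Ts11 10 below and 5 above (26.9% and 26.8%). In Ts15, 15 lay above and 0 below (27.2% and 30.0%). All 4 comparisons share the same 2 WT arrays, so these counts are not independent of each other.

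Sequence upstream of the transcription start is shown for genes that turn up again below: Acta2 and Sparc, which were called in Ts15, and the collagen genes Col1a2 and Col3a1, which were not called in any line. Each is the 250 bases before the start in RefSeq (build GRCm38.p6), 5′ to 3′ on the gene's strand. Capitals mark GGAATG (the core bound by TEAD factors), CCAAT or TATAAA on either strand.
Acta2: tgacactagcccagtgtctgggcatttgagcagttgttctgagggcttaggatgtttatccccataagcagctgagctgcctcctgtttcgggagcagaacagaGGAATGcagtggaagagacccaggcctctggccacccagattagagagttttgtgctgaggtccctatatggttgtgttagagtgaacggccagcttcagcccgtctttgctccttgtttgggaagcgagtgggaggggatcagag
Sparc: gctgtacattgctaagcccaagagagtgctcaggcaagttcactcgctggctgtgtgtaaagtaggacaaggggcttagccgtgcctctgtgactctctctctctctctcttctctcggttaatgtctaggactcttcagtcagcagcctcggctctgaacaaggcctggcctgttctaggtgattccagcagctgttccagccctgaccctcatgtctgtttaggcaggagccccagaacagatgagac
Col1a2: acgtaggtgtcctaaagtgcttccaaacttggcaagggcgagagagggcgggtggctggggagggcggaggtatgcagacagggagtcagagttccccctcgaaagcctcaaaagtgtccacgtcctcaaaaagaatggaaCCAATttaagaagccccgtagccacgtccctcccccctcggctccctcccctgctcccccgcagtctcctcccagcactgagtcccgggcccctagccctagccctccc
Col3a1: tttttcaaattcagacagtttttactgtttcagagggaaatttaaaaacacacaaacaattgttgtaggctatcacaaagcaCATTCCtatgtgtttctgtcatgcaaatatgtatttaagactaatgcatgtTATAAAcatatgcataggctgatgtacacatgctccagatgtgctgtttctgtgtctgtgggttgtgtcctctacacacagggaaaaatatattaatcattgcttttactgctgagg
These windows lie at chr19:34255374-34255623 (minus strand), chr11:55420081-55420330 (minus strand), chr6:4505368-4505617 (plus strand) and chr1:45311288-45311537 (plus strand). Windows of 17 of the 31 genes were used. GGAATG was in the windows of Acta2, Cyr61 (now Ccn1), Col3a1 and Col6a2, 4 of 17 genes, beside 12.6% of all 32851 windows. CCAAT was in 5 (Cnn1, Col1a2, S100a6, Thbs2 and Vim; 33.9% of all windows) and TATAAA in 6 (Cyr61, Col3a1, Postn, S100a4, Thbs2 and Vim; 12.4%). A strict match to the consensus of the serum response factor's CArG box, with no mismatch allowed, was in none of the 17 and in 1.47% of all windows; imperfect elements, such as those known in the Acta2 promoter, were not searched for. The capitals thus differ between Acta2, with 1 GGAATG, and Sparc, with none of the motifs searched, although both genes were called in Ts15; a match is letters only, and no binding was measured.

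The matricellular genes are described first. Sparc encodes osteonectin, a collagen-binding glycoprotein, and its measuring probe lies at chr11:55208939-55208998 on mm9. The level of Sparc was 3.50 and 3.40 on the WT arrays, 3.52 and 3.41 for Ts6, 3.26 and 3.37 for Ts8, 3.64 and 3.62 for Ts11, and 4.11 and 3.88 for Ts15. Both Ts15 arrays lay above all 8 others. Sparc rose in Ts15 by 0.55 ± 0.12 (SE) on the log2 scale, or 1.46-fold (limma adjusted p = 0.0327), and its second probe was higher by 0.42. The call was lost when either array of WT, Ts6 or Ts15 was left out and under 4 other settings, passage as a covariate among them, over which the limma adjusted p went up to 0.204. Against the other lines Sparc was higher in Ts15 by 0.53 ± 0.12 than in Ts6 (adjusted p = 0.02, limma) and by 0.68 ± 0.12 than in Ts8 (adjusted p = 0.0101, limma).

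Sparc in Ts15 stood beside other genes that endoderm makes. Of 14 markers of primitive and parietal endoderm, 10 were higher in Ts15 (limma adjusted p under 0.05), where 2.58% of all genes were. This list, too, was chosen with earlier results of these data known. Sox17 led at 2.48 and Foxa2 followed at 1.95 log2 above WT. The summed level of the 14 markers was 19.96 to 25.9 on the Ts15 arrays, 10.8 on both WT arrays and 7.70 to 9.32 on the other 6. Within Ts15, Sparc and the median of these markers were both higher on replicate 1 (marker medians 1.53 and 1.17 above WT). On replicate 2, 24 of the 30 fibroblast and matrix genes were higher, where 37.8% of all genes were. Sparc was thus on the side of most genes of the array. Vim, Fn1, Ctgf, S100a6 and Cnn1 were also higher on replicate 1. The part of endoderm cells in the Sparc result was not tested.

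The other 4 matricellular genes were not called in any line. Ctgf (now Ccn2) and Cyr61 (now Ccn1) encode secreted proteins of 1 family that serum and cell tension induce. The mean of Ctgf was above WT in all 4 lines, by 0.51 ± 0.14 in Ts15 (limma adjusted p = 0.0675) and by 0.15 in Ts6, 0.32 in Ts8 and 0.22 in Ts11. Its WT arrays differed from each other, at 2.90 and 2.55, and the Ts15 arrays, at 3.24 and 3.23, lay above both. For Cyr61 the WT arrays were at 2.37 and 1.65 and no line was apart from them, so its differences of 0.16 to 0.38 lay within the spread of WT.

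Thbs1 and Thbs2 encode thrombospondins, large glycoproteins that bind cells and growth factors. Thbs2 had one of the largest differences in the group and also one of the largest spreads. On the WT arrays it was at -2.35 and -2.30, in Ts6 at -3.33 and -2.88, in Ts8 at -2.85 and -3.48, in Ts11 at -2.74 and -3.54, and in Ts15 at -2.52 and -2.01. All 6 arrays of Ts6, Ts8 and Ts11 lay below both WT arrays, while those of Ts15 lay on both sides of them. The differences were -0.78 in Ts6, -0.84 in Ts8 and -0.82 in Ts11, each ± 0.33, with limma adjusted p of 0.19, 0.167 and 0.17. Thbs1 was lower in the same 3 lines by 0.25 to 0.27 and higher in Ts15 by 0.38 ± 0.20 (limma adjusted p = 0.284).

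The fibril-forming collagens make the main fibres of connective tissue: type I from Col1a1 and Col1a2, type III from Col3a1, and type V, which starts and limits the fibres, from Col5a1 and Col5a2. Of the 5 genes only Col5a2 was called, and only in Ts6. Col1a1 was at 2.30 and 2.38 for WT, 1.89 and 2.31 for Ts6, 2.39 and 2.07 for Ts8, 2.53 and 2.28 for Ts11, and 2.43 and 2.67 for Ts15. Ts15 lay above WT and the other lines overlapped it, and the differences of -0.24 to 0.21 had an SE of 0.19. The partner chain Col1a2 was at 2.90 and 3.18 for WT, 2.72 and 3.07 for Ts6, 3.02 and 2.87 for Ts8, 3.25 and 2.96 for Ts11, and 3.31 and 3.44 for Ts15. It followed the same order of groups as Col1a1, with Ts15 highest (0.34 ± 0.17, limma adjusted p = 0.275) and Ts6 lowest.

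Col3a1 spread more. Its levels were 1.02 and 1.16 for WT, 0.53 and 0.98 for Ts6, 1.00 and 0.55 for Ts8, 1.12 and 0.45 for Ts11, and 1.24 and 1.61 for Ts15. The 2 arrays of Ts11 were 0.66 apart, which is more than any line's mean differed from WT (-0.34 in Ts6 to 0.33 in Ts15, SE 0.27). Col5a1 was not called either (differences of -0.20 to 0.32, SE 0.19), and Ts15 lay above both WT arrays.

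Col5a2 was dim, and its probe lies at chr1:45431204-45431263 on mm9. It was at -4.69 and -4.47 for WT, -6.16 and -5.41 for Ts6, -4.93 and -4.52 for Ts8, -4.15 and -4.19 for Ts11, and -5.03 and -4.36 for Ts15. The Ts6 arrays were the lowest of the 10, and the lower of them was not well above background. Col5a2 fell in Ts6 by 1.20 ± 0.30 on the log2 scale, or 2.3-fold (limma adjusted p = 0.046), and was higher in Ts11 than in Ts6 by 1.61 ± 0.30 (limma adjusted p = 0.0226). The call against WT was lost without either array of WT, Ts8 or Ts11 and without Ts6 replicate 1, where the difference was -0.83 with an adjusted p of 0.251 in limma; it was also lost under 5 other settings, among them passage as a covariate. Col5a2 was the 1 collagen here with Ts11 above both WT arrays.

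**Figure D2:**
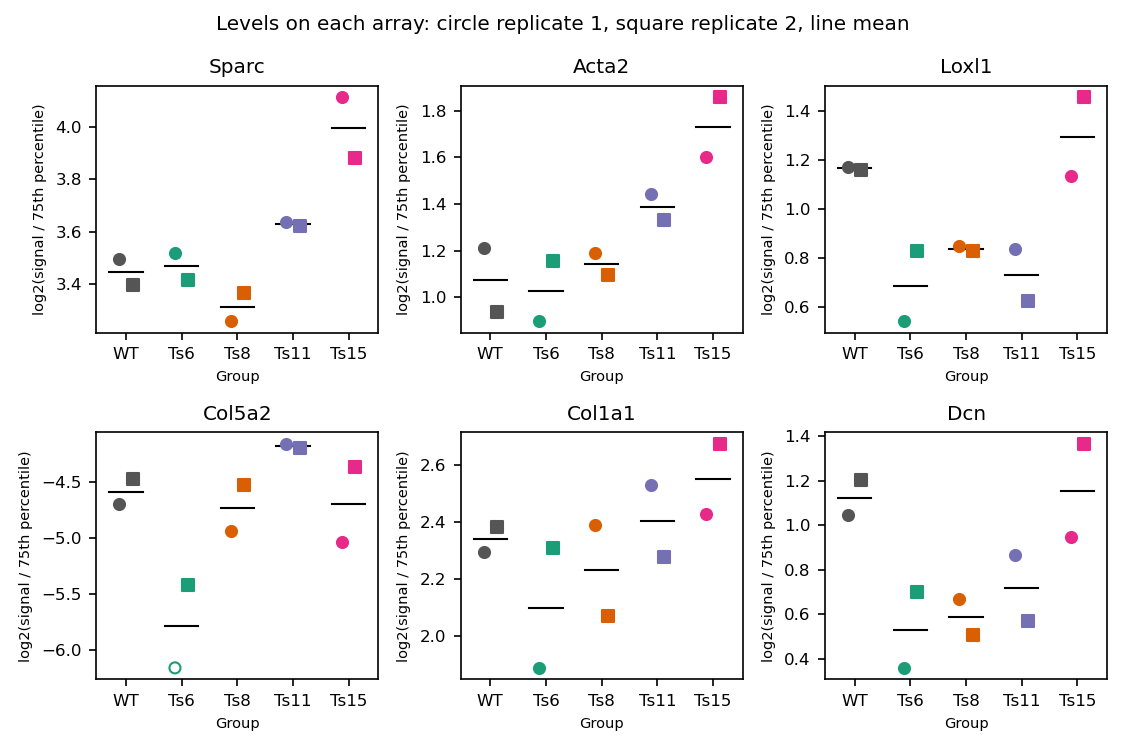
Levels of 6 genes on each array, as log2 of signal over the array's 75th percentile; circles are replicate 1, squares replicate 2, lines the mean of 2 arrays, and the open symbol a value not well above background. Sparc and Acta2 sit highest on both Ts15 arrays, and Col5a2 lowest on both Ts6 arrays.

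Collagen VI forms beaded filaments around cells from chains encoded by Col6a1, Col6a2 and Col6a3. All 3 chains were lower in Ts6, Ts8 and Ts11 than in WT, and none was called. The differences were -0.40 to -0.58 in Ts6, -0.33 to -0.35 in Ts8 and -0.10 to -0.37 in Ts11, with SEs of 0.19 to 0.27. In Ts6 and Ts8 both arrays lay below both WT arrays for all 3 genes. Col6a3, at -1.93 and -1.89 for WT, was at -2.83 and -2.15 for Ts6, so the 2 Ts6 arrays were further apart than their mean was from WT. The second probe of Col6a2, well above background on 8 arrays, was higher than WT by 0.41 in Ts11, where the first was lower by 0.37, and showed no such difference in Ts6 and Ts8 (0.004 and -0.01).

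Of the adhesive and structural genes, Dcn, Fbn1, Postn and Fn1 were tested and none was called against WT. Dcn encodes decorin, a small proteoglycan that coats collagen fibrils. It was at 1.05 and 1.20 for WT, 0.36 and 0.70 for Ts6, 0.67 and 0.51 for Ts8, 0.86 and 0.57 for Ts11, and 0.95 and 1.37 for Ts15. Ts6, Ts8 and Ts11 all lay below WT, by 0.60, 0.54 and 0.41 (SE 0.19; limma adjusted p of 0.0975, 0.141 and 0.227), and Ts15 overlapped WT. In 8 of the 30 genes (Col6a2, Col6a3, Dcn, Tagln, Loxl1, Timp3, S100a4 and Thbs2) all 6 arrays of Ts6, Ts8 and Ts11 lay below both WT arrays, beside 8.34% of all genes.

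Fbn1 encodes fibrillin, the scaffold of elastic microfibrils. Its levels were -1.59 and -2.04 for WT, -2.57 and -2.16 for Ts6, -1.64 and -1.45 for Ts8, -2.06 and -1.96 for Ts11, and -1.90 and -1.66 for Ts15. Ts6 lay below every other array and Ts8 overlapped WT. Fbn1 was higher in Ts8 than in Ts6 by 0.82 ± 0.20 (limma adjusted p = 0.0342), and that call was lost when either array of Ts8 or Ts15 or replicate 1 of Ts6 was left out, when slide 1 was fitted alone and under 2 other settings (adjusted p up to 0.195). Postn was dim, with only 1 of 2 arrays well above background in Ts11 and in Ts15 and neither in Ts6, so no differences between its arrays are given for these lines. Set against the lowest signal well above background, the mean of WT was at least 1.35-fold higher than Ts6. That bound makes no allowance for the spread of the 2 WT arrays, at -5.75 and -5.12. In the fit the difference was not called (SE 0.60, limma adjusted p = 0.636). Fn1, the gene of fibronectin, varied least, with all 10 arrays between 3.82 and 4.10, and Ts6 below WT by 0.13 ± 0.09 (limma adjusted p = 0.442).

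The genes of crosslinking and turnover are Lox and Loxl1, which encode oxidases that crosslink collagen and elastin, Timp3, an inhibitor of matrix proteases bound to the matrix, and Mmp2, a protease that cuts basement membrane collagen. Loxl1, measured at chr9:58138570-58138629 on mm9, was called by the F test (adjusted p = 0.0484, limma), a call kept under 2 of 20 other settings. It was at 1.17 and 1.16 for WT, 0.54 and 0.83 for Ts6, 0.85 and 0.83 for Ts8, 0.84 and 0.62 for Ts11, and 1.14 and 1.46 for Ts15. The 6 arrays of Ts6, Ts8 and Ts11 lay below the 4 of WT and Ts15. Against WT the differences were -0.48 ± 0.15 in Ts6 (limma adjusted p = 0.0949), -0.33 in Ts8 and -0.44 in Ts11, and its second probe gave -0.52, -0.34 and -0.38. Loxl1 was higher in Ts15 than in Ts6 by 0.61 ± 0.15 (adjusted p = 0.0305, limma) and than in Ts11 by 0.57 ± 0.15 (adjusted p = 0.0439, limma), and the latter was lost when any of the 10 arrays was left out (adjusted p up to 0.205 over all settings).

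The 2 arrays of a line differed for Lox and Timp3, by the most in Ts11. There the 2 arrays of Lox were at -1.10 and -1.78 and those of Timp3 at 1.31 and 0.77, and neither gene was called (limma adjusted p of at least 0.349 in every line). For Lox the 2 probes disagreed in Ts6, where they gave -0.19 and 0.16. Mmp2 went another way than most of the group. It was at 0.12 and -0.42 for WT, -0.16 and 0.11 for Ts6, 0.64 and 0.48 for Ts8, 0.20 and 0.38 for Ts11, and 0.15 and 0.43 for Ts15. Ts8, Ts11 and Ts15 lay above both WT arrays, with the largest difference in Ts8 (0.71 ± 0.20, limma adjusted p = 0.0887).

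The actin genes are Acta2, encoding smooth muscle actin, Tagln, encoding the actin-binding protein transgelin, and Cnn1, encoding calponin; all are hallmarks of smooth muscle and of contractile fibroblasts. Acta2, at chr19:34316060-34316119 on mm9, was at 1.21 and 0.94 for WT, 0.90 and 1.16 for Ts6, 1.19 and 1.09 for Ts8, 1.44 and 1.33 for Ts11, and 1.60 and 1.86 for Ts15. Ts15 was above all others and Ts11 above WT, Ts6 and Ts8. Acta2 rose in Ts15 by 0.65 ± 0.15 on the log2 scale, or 1.57-fold (limma adjusted p = 0.0426). Its probe had 10 spots on every array, whose SD was 0.04 to 0.07, and the SD between the 2 arrays of a group was 0.07 to 0.19. The call was lost when any of the 10 arrays was left out and under 7 other settings (adjusted p up to 0.187).

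Acta2 was also higher in Ts15 than in Ts6 by 0.70 ± 0.15 (adjusted p = 0.0185, limma) and than in Ts8 by 0.59 ± 0.15 (adjusted p = 0.0372, limma), the latter lost under 9 of 20 other settings (adjusted p up to 0.178). Tagln, which often accompanies Acta2 in contractile cells, did not follow it. Tagln was at 3.05 and 2.70 for WT, 2.43 and 2.41 for Ts6, 2.38 and 2.25 for Ts8, 2.48 and 2.39 for Ts11, and 2.64 and 2.71 for Ts15. The mean of WT was the highest, and Ts6, Ts8 and Ts11 lay below it by 0.45, 0.56 and 0.44 (SE 0.13; limma adjusted p of 0.0761, 0.0611 and 0.0868), while Ts15 overlapped it at -0.20. Cnn1 differed from WT by -0.13 to 0.23 and was not called.

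The remaining genes mark mesenchymal cells from within or at the surface: Vim (the intermediate filament vimentin), Lgals1 (galectin-1), Thy1 (a surface glycoprotein of fibroblasts), the calcium-binding S100a4 and S100a6, and Pdgfrb (a receptor for platelet-derived growth factor). None of the 6 was called in any line against WT. Vim was at 4.79 and 5.01 for WT, 4.67 and 4.89 for Ts6, 4.75 and 4.61 for Ts8, 4.81 and 4.67 for Ts11, and 5.01 and 4.99 for Ts15. The whole range over 10 arrays was 0.40, and the lines overlapped WT except Ts8, which lay below it. Both Ts15 arrays lay above those of Ts6, Ts8 and Ts11. Thy1 was at 3.18 and 3.20 for WT, 2.80 and 3.08 for Ts6, 3.08 and 2.85 for Ts8, 3.27 and 2.94 for Ts11, and 3.42 and 3.50 for Ts15. Ts15 was above WT by 0.27 ± 0.15 and Ts6 below it by 0.25 ± 0.15 (limma adjusted p of 0.32 and 0.372).

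Lgals1 and S100a6 were highest on the Ts15 arrays too, by 0.19 and 0.24 over WT. S100a6 was at 3.26 and 3.22 for Ts15 and at 2.86 and 2.72 for Ts8, a difference of 0.45 ± 0.12 that was called (limma adjusted p = 0.0357) and lost, among others, without replicate 2 of Ts8 or either array of Ts6 or Ts15 (up to 0.172). S100a4 was below both WT arrays in Ts6, Ts8 and Ts11, by 0.34, 0.27 and 0.23. Pdgfrb was lowest in Ts8, at -2.65 and -3.25 against -2.41 and -1.77 for WT (-0.86 ± 0.27, limma adjusted p = 0.109), and it was the only one of the 6 below WT in Ts15 (-0.22).

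**Figure D3:**
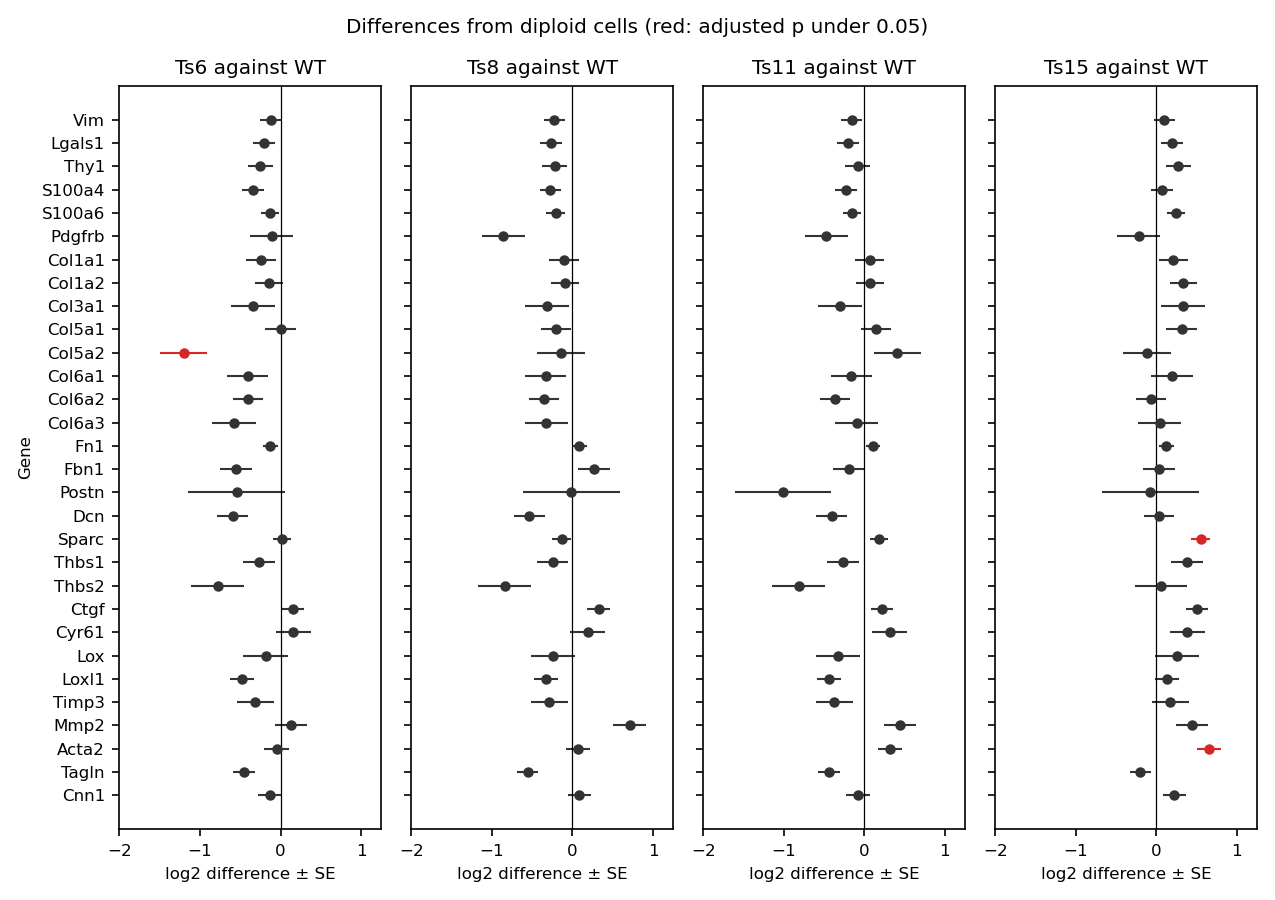
Log2 difference of each of 30 genes from WT in the 4 trisomic lines, with bars of ± 1 SE from limma; red points had an adjusted p under 0.05. The only red points are Col5a2 in Ts6 (-1.20) and Sparc (0.55) and Acta2 (0.65) in Ts15.

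Between lines the contrast was of Ts15 with the rest. Ts15 had the higher mean than Ts6 in 29 of the 30 genes, than Ts8 in 27 and than Ts11 in 28, beside 50.1%, 47.3% and 50.1% of all genes. The median difference was 0.46 against Ts6, 0.44 against Ts8 and 0.31 against Ts11. The calls were Sparc, Col5a2, Acta2 and Loxl1 against Ts6 (7.86% of all genes were called higher), Sparc, Acta2 and S100a6 against Ts8 (5.57%), Loxl1 against Ts11 (5.77%), and, among the lines on slide 1, Fbn1 between Ts8 and Ts6 (7.43%) and Col5a2 between Ts11 and Ts6 (3.49%). No gene was called between Ts11 and Ts8 (7.81% of all genes in either direction), with 2 at an unadjusted limma p under 0.05 (22.4% of all genes). In all, 6 of 30 genes were called in some pair of lines, where 37.0% of all genes were. In the comparisons with Ts15 all calls ran higher in Ts15, and line and slide cannot be told apart there.

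The 2 arrays of a group often differed as much as groups did, and the genes moved together. Replicate 2 was above replicate 1 in 25 of 30 genes in Ts6 (43.5% of all genes) and in 24 of 30 in Ts15 (37.8%). In Ts8 and Ts11 it was the reverse, with replicate 2 higher in 4 of 30 each (46.7% and 37.5% of all genes). In WT the count was 17 of 30 (50.5%). The median of replicate 2 minus replicate 1 was 0.27 in Ts6, 0.25 in Ts15, -0.16 in Ts8, -0.20 in Ts11 and 0.02 in WT. The median of all genes moved by 0.07 or less in every group.

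**Figure D4:**
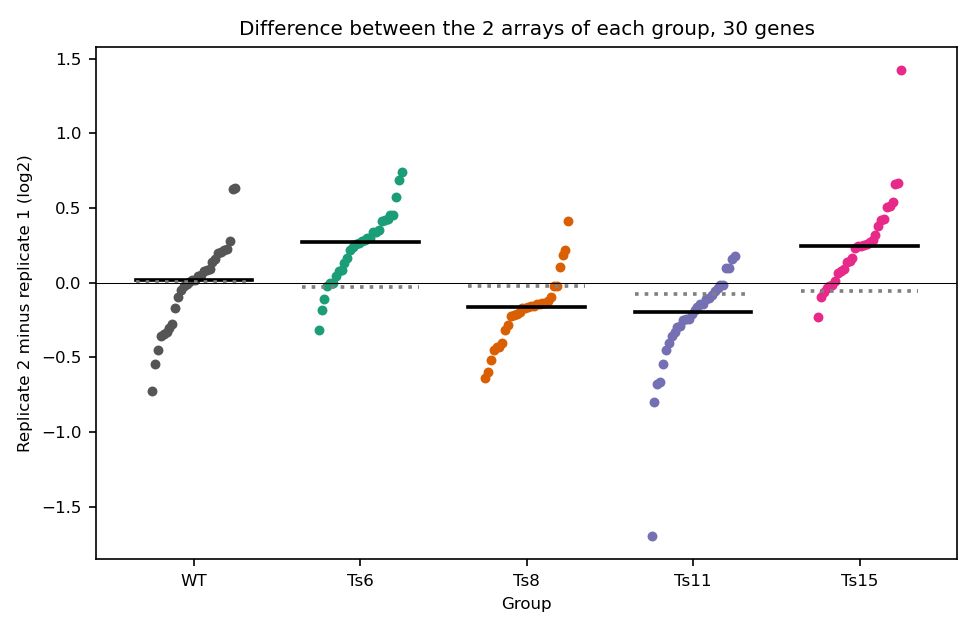
Replicate 2 minus replicate 1 (log2) for 30 genes in each group; the black line is the median of the 30 genes and the dotted line that of all 28193 genes. The points sit mostly above 0 in Ts6 and Ts15 and mostly below 0 in Ts8 and Ts11.

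Some genes took part in this shift and others did not. In 16 genes replicate 2 was the higher in Ts6 and Ts15 and the lower in Ts8 and Ts11, a pattern that 7.77% of all genes had. These were Thy1, Col1a1, Col1a2, Col3a1, Col5a1, Col6a1, Col6a3, Postn, Dcn, Acta2, Lox, Loxl1, Timp3, S100a4, Thbs1 and Thbs2. The 14 that did not follow it were Vim, Lgals1, Fn1, Sparc, Col5a2, Col6a2, Fbn1, Tagln, Mmp2, Ctgf, Cyr61, S100a6, Pdgfrb and Cnn1. The pattern was noticed in these values and is given as a description. For Postn it rests partly on signal not well above background, as on both Ts6 arrays. In Ts6 the 2 replicates were also 9 passages apart, against 2 or 3 in the other groups.

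Array by array, the median of the 30 genes relative to the WT mean was -0.01 and 0.01 for WT, -0.36 and -0.13 for Ts6, -0.11 and -0.31 for Ts8, -0.03 and -0.25 for Ts11, and 0.10 and 0.31 for Ts15. The lowest arrays were thus 1 each of Ts6, Ts8 and Ts11, while the higher array of Ts11 came close to WT. Ts15 replicate 2 was the highest of the 10 arrays for 19 of 30 genes, beside 6.83% of all genes, and Ts6 replicate 1 the lowest for 13, beside 12.1%. Summed over the 30 genes the level was 168.2 and 160.1 for WT, 139.4 and 153.6 for Ts6, 150.9 and 143.4 for Ts8, 162.8 and 148.0 for Ts11, and 188.1 and 193.7 for Ts15. Lgals1 and Vim each gave 17.7% of this sum, so it follows the brightest probes. The highest array exceeded the lowest by 1.39-fold in summed level.

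Only 5 of the 30 tested genes lie on a chromosome that 1 of the lines carries in 3 copies, where log2(3/2) is 0.58. Col1a2 on chromosome 6 was at -0.14 in Ts6, below the median of 0.15 over 1456 genes of that chromosome. Mmp2 on chromosome 8 was at 0.71 in Ts8, above the chromosome's median of 0.26 (1498 genes). In Ts11, Sparc was at 0.18 and Col1a1 at 0.06 beside a median of 0.18 (1996 genes), and Lgals1 in Ts15 was at 0.19, as was the median of 1105 genes of chromosome 15. None of the 5 was called in its own trisomy. Over genes of all chromosomes, 3.49% were called in Ts8 and 8.13% in Ts11 in either direction, and 2.58% higher in Ts15. In Ts6, 4.6% were called lower, and the share called higher is not given here. Shares among the genes of the trisomic chromosome alone are not given either. The absence of calls among 5 genes is therefore not read as a result about them.

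Genes of the wider matrix, from lists that are not part of the 31, were counted in the same fit. Beside these counts, 4.6% of all genes were called lower in Ts6 and 2.58% higher in Ts15. In either direction 3.49% of all genes were called in Ts8 and 8.13% in Ts11. With so few genes in a list, 1 or 2 calls are not read as a result about it. Among 11 other fibrillar and fibril-associated collagens, 4 were lower in Ts6, 2 lower in Ts11 and 2 higher in Ts15 (limma adjusted p under 0.05), with medians of -0.59, -0.14 and 0.06 and of -0.25 in Ts8, where none was called. The largest were Col8a2, at -1.44 in Ts6 and -1.50 in Ts11, and Col2a1, the cartilage collagen, at 0.92 in Ts15. Col2a1 lies on chromosome 15, which Ts15 carries in 3 copies. Of 13 basement membrane genes 4 were higher in Ts15, among them Lama1 (0.95) and Col4a2 (0.88), and none was called in the other lines. Of 21 elastic fibre and matricellular genes 4 were lower and 1 higher in Ts6, led by Ccn5 (-1.58) and Vcan (-1.37), 1 was higher in Ts11 and 2 higher in Ts15. The gene higher in Ts6, that higher in Ts11 and 1 of the 2 higher in Ts15 lie on the chromosome that their line carries in 3 copies. The part of copy number in these differences was not tested.

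Of 18 genes of collagen processing and crosslinking 3 were higher in Ts15, among them P4ha2, a prolyl hydroxylase, at 0.88. P3h2, another prolyl hydroxylase, was lower in Ts6, Ts8 and Ts11 (-1.17, -0.84 and -1.31) and higher in Ts15 (0.71), and 1 gene of the list was higher in Ts6. Of 16 matrix proteases and inhibitors 3 were lower in Ts6 and 1 each in Ts8 and Ts11, with Mmp23 at -1.47 in Ts8 and Serpine2 at -0.92 in Ts6. Of 16 tested matrix receptors 2 were lower in each of Ts6, Ts8 and Ts11, with Itga3 at -1.01 in Ts8 and Itga1 at -0.75 in Ts6. Of 12 tested contractile genes Des (desmin) was higher in Ts6 at 0.88 and Myl9 lower in Ts11 at -0.81. None of 16 genes of TGF-beta and YAP signalling and none of 4 tested small proteoglycans was called in any line. At an unadjusted limma p under 0.05, Ts6 and Ts8 each had 4 of the 16 signalling genes, Ts11 had 1 and Ts15 had 0. None of the 4 small proteoglycans had such a p in any line. In any single line 24.4% to 25.3% of all genes had such a p.

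A separate list of fibroblast transcription factors and surface genes, with none of the 31 in it, ran alongside. Of its 17 genes 16 were tested (Meox2 was not). In Ts6, 3 were called lower, where 4.6% of all genes were: Tcf21 (-0.92), Pdgfra (-0.70) and Snai1 (-0.59). None of the list was called in Ts8, Ts11 or Ts15. Its median difference from WT was -0.48 in Ts6, -0.21 in both Ts8 and Ts11, and 0.29 in Ts15. The summed level was 12.2 to 12.3 in WT, 8.03 to 10.3 in Ts6, 9.59 to 11.3 in Ts8, 11.0 to 11.8 in Ts11 and 13.2 to 15.1 in Ts15, so the groups stood in nearly the same order as for the 31 genes. Between the 2 arrays of a group, replicate 2 was higher in 13 of 16 genes in Ts6, 14 in Ts15, 5 in Ts8, 4 in Ts11 and 6 in WT. For the 14 ES cell markers the counts were 2, 0, 4, 7 and 6 in the same order. Of all genes, replicate 2 was higher in 43.5% in Ts6, 37.8% in Ts15, 46.7% in Ts8, 37.5% in Ts11 and 50.5% in WT.

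**Figure D5:**
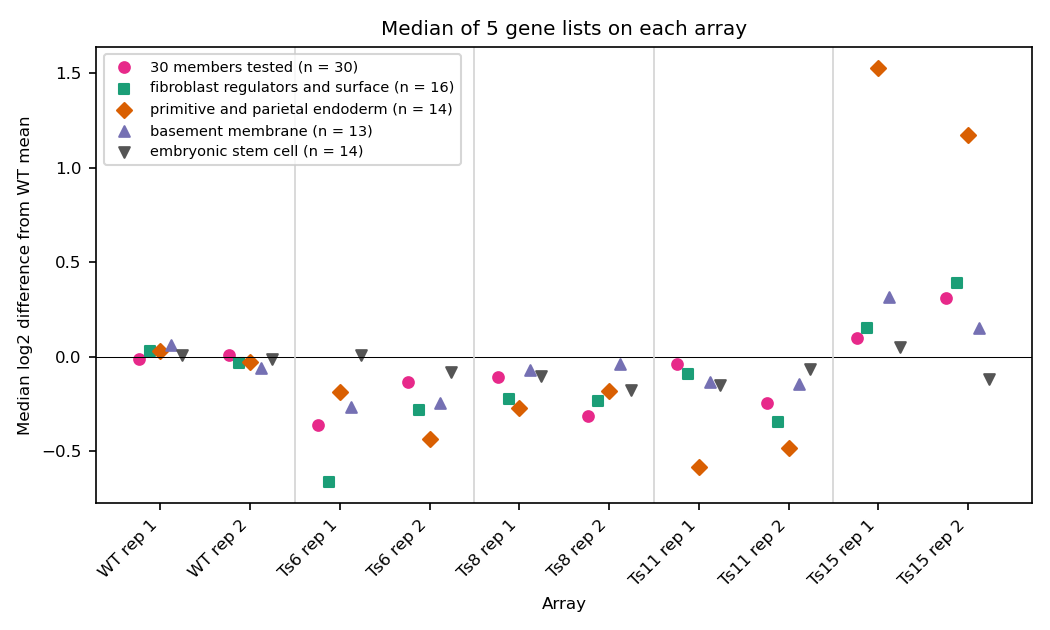
Median log2 difference from the WT mean of 5 gene lists on each of the 10 arrays. The fibroblast lists (circles and squares) lie below 0 on all 6 arrays of Ts6, Ts8 and Ts11 and above 0 on both of Ts15; the endoderm list (diamonds) reaches 1.53 and 1.17 on the Ts15 arrays.

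Markers of other cell types were counted likewise, beside 4.6% of all genes called lower in Ts6 and 2.58% called higher in Ts15. In either direction 3.49% of all genes were called in Ts8 and 8.13% in Ts11. Of the 14 ES cell markers, none was called in Ts6 or Ts15, Tfcp2l1 was lower in Ts8 (-0.64) and Lin28a lower in Ts11 (-0.55). The 10 endoderm markers higher in Ts15 were Sox17, Foxa2, Sox7 (1.52), Gata6 (1.51), Cubn (1.47), Amn (1.40), Stra6 (1.38), Gata4 (1.37), Fst (0.78) and Dab2 (0.74). In Ts6 this list had Stra6 higher (1.12) and Thbd (-2.29), Lrp2 (-1.37) and Dab2 (-0.73) lower, and in Ts11 Lrp2 lower (-0.82). Of 8 tested mesoderm markers, Hand1 was higher in Ts6 (1.11) and Ts15 (1.32), Mesp1 lower in Ts6 (-1.01) and T lower in Ts8 (-1.44). Of 5 tested macrophage and leukocyte markers, Csf1r was lower in Ts6 (-1.15) and Ts11 (-0.89) and Cd68 lower in Ts6 (-0.38) and Ts8 (-0.75). None of 5 tested endothelial markers was called. At an unadjusted limma p under 0.05 there were 2 of them in each of Ts6, Ts8 and Ts11 and 1 in Ts15. In any single line 24.4% to 25.3% of all genes had such a p. How far any of these cell types shares in the values of the 31 genes was not tested.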

How the data were processed

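The intensity values, as deposited, came from Agilent Feature Extraction 10.7.3.1 and probes placed on mm9, with detrending on and background correction off, per the file headers; no scaling between arrays is recorded. The deposited series table held log2 values, which served only as an alternative: they rose with the scanner's log2 values (correlation across probes at least 0.998), with medians of -3.40 on both WT arrays, -3.41 on both of Ts6, -3.36 on both of Ts8, -3.37 on both of Ts15, and -3.32 and -3.31 for Ts11; their centring stays unknown.

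From the processed signals, log2 minus the array's 75th percentile was taken and spots of a probe were averaged. The file of Ts15 replicate 2 was rounded to 3 significant digits with 58 gene names altered, and names were read from other files. Of 55681 probes, 176 with outlier flags were dropped, with those that no group had well above background on its 2 arrays, leaving 43056. Names were updated by RefSeq accession (26762 of 28390 matched). The probe with the highest mean stood for each of 28193 genes. limma 3.58.1 in R 4.3.3 fitted 1 mean per group over 10 arrays (5 residual and 2.67 prior degrees of freedom), two-sided, with Benjamini-Hochberg adjustment and calls at an adjusted p under 0.05; the fit was tested on simulated data. A group with no array above background gives a bound against the lowest signal well above background. All 31 genes were to be named, with every array's value for those called against WT or by the F test and for Col1a1, Col1a2, Col3a1, Vim and Thy1, and the array values of other genes were added after seeing them; of each related list, at most 2 called genes with the largest difference, and of marker lists the called genes. The genes and lists were chosen with earlier results of these data known. Alternatives covered background correction, scaling, filter, probe choice, samples, slide, passage, replicate block and leaving out each array. Exon and UTR positions were not analysed here.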

Additional observations from a re-analysis of the deposited data

Results flagged for a closer look

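These differences between trisomic lines passed limma's test of the difference itself, in a fit whose estimate of the spread includes all 10 arrays (adjusted p under 0.05, values are log2 ± SE). Those with Ts15 also compare slide 2 with slide 1, and line and slide cannot be told apart. With only the arrays of the 2 groups compared, the call of Acta2 in Ts15 against Ts6 was kept and the others were lost.

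Sparc was higher in Ts15 than in Ts6 by 0.53 ± 0.12 (limma adjusted p = 0.02), lost without either Ts6 array or Ts15 replicate 1 (0.0777 to 0.102). It was higher in Ts15 than in Ts8 by 0.68 ± 0.12 (limma adjusted p = 0.0101), lost without Ts15 replicate 1 (0.0552). Acta2 was higher in Ts15 than in Ts6 by 0.70 ± 0.15 (limma adjusted p = 0.0185), lost without Ts6 replicate 1 (0.124) or Ts15 replicate 2 (0.108). It was higher in Ts15 than in Ts8 by 0.59 ± 0.15 (limma adjusted p = 0.0372), lost without any 1 of the Ts8 and Ts15 arrays (0.066 to 0.178) and with quantile normalization (0.0539), the series value table (0.0572), no filter on dim probes (0.062) or passage as a covariate (0.0528).

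Loxl1 was higher in Ts15 than in Ts6 by 0.61 ± 0.15 (limma adjusted p = 0.0305), lost without Ts6 replicate 1 (0.18) or Ts15 replicate 2 (0.158), or with no filter on dim probes. It was higher in Ts15 than in Ts11 by 0.57 ± 0.15 (limma adjusted p = 0.0439), lost without any 1 of the 10 arrays (0.0527 to 0.205) and under 8 of 10 other settings. S100a6 was higher in Ts15 than in Ts8 by 0.45 ± 0.12 (limma adjusted p = 0.0357), lost without Ts8 replicate 2 (0.172), either Ts6 array (0.0613) or a Ts15 array (0.133 and 0.125), and with normexp background correction, quantile normalization, the series value table or no filter on dim probes.

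Col5a2 was higher in Ts15 than in Ts6 by 1.09 ± 0.30 (limma adjusted p = 0.041) and in Ts11 than in Ts6 by 1.61 ± 0.30 (limma adjusted p = 0.0226). Without Ts6 replicate 1, which was not well above background, these were 0.72 and 1.24 and neither was called (0.218 and 0.13); the first was also lost without either array of WT or Ts11 or Ts15 replicate 2, with no filter on dim probes, or scaled over probes well above background on all arrays, the second without either Ts11 array. Fbn1 was higher in Ts8 than in Ts6 by 0.82 ± 0.20 (limma adjusted p = 0.0342), both on slide 1, and lost without Ts6 replicate 1 (0.195), either Ts8 array (0.0572 and 0.171) or either Ts15 array (0.0507). The call was also lost when slide 1 was fitted alone (0.0507) or with no filter on dim probes (0.0589).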

How the results depend on the processing

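The median differences of the 30 genes kept their sign under all settings, and over leaving out 1 array ran from -0.36 to -0.13 in Ts6, -0.31 to -0.11 in Ts8, -0.25 to -0.03 in Ts11 and 0.10 to 0.31 in Ts15; with passage as a covariate Ts11 moved to -0.0073. Counts of called genes were less stable, and except where fewer genes or arrays entered the cause was not tested. The 1 call in Ts6 became 0 with normexp, with the percentile over detected probes, with no filter, with only probes above background on all arrays, with only the 2 groups compared and with passage. The 2 calls in Ts15 became 1 with normexp, quantile, the percentile over detected probes, the series table and the replicate block, and 0 with no filter, with 2 groups and with passage. Ts8 had 1 call with only probes above background on all arrays. The 4 calls of the F test became 2 with quantile, passage and the replicate block and 1 with no filter and on slide 1 alone; the 10 calls over pairs of lines became 4 with no filter, 2 with 2 groups and 1 on slide 1 alone (3 pairs). Leaving out 1 array gave 0 to 1 calls in Ts6 and in Ts11, 0 in Ts8 and in the mean of the lines, 0 to 2 in Ts15, 0 to 4 by the F test and 2 to 9 over pairs. Replicate differences did not run alike across all groups. Their correlations between groups ran from -0.10 (WT with Ts11) to 0.39 (Ts8 with Ts11), with 0.21 for Ts6 with Ts15. The replicate block is given here only. In Ts11, replicate 2 was the higher in 8 of 30 genes, not 4, with quantile and with the series table, settings chosen for this count after seeing the data. No result changed sign. Of single genes' results, 703 kept their side of the threshold, 151 lost a call and 4 gained one. The 703 include genes not called in the main fit, which had no call to lose, so they do not measure how often calls held. Of the calls against WT, Sparc in Ts15 was kept under 10 of 20 alternatives, Acta2 in Ts15 under 3 of 20 and Col5a2 in Ts6 under 8 of 20. The 2 arrays of each group, and signal near background for Postn and Col5a2, limit these values.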
